A study of Drosophila melanogaster with 18 samples.

Results

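The unfolded protein response and the integrated stress response were followed through 8 Drosophila genes: PEK, Gcn2, crc, Xbp1, Ire1, Atf6, Hsc70-3 and Gp93. The genes were picked by name for their known place in these pathways, and each was looked up by its symbol in the authors' deposited lists of genes bound by PolII and by Ets21c. Of the 8, 6 stood in at least 1 of the 4 lists, which together hold 7136 of the 18277 annotated genes. Gcn2 and Atf6 stood in no list.

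The study mapped binding in the adult midgut with Targeted DamID (TaDa), in which a protein fused to the bacterial methylase Dam marks GATC sites near the DNA it contacts. Virgins carrying esg-Gal4, which is active in intestinal stem cells (ISCs) and enteroblasts (EBs) together, or Myo1A-Gal4, active in enterocytes (ECs), each with UAS-GFP and tub-Gal80-TS, were crossed to UAS-LT3-Dam, UAS-LT3-Dam-PolII or UAS-LT3-Dam-ets21c-RA males. Mated female offspring spent 72 hours at 29°C to express the transgene, with no other stress, and dissected midguts were pooled for each of 3 replicates in the 6 groups, 18 samples in all. The lists are thus of young, unstressed females, the 3 transgenes sat in the same landing site, and the ISC/EB lists do not separate stem cells from enteroblasts.

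Each list gives, for a gene, a height and a false discovery rate (FDR), both made by the authors. A height is the log2 ratio of the Dam fusion over Dam alone: the mean over the transcript for PolII and the mean over an assigned peak for Ets21c, so heights of PolII and of Ets21c are not on a common scale. The lists carry 1 height per gene and cell type, with no value for single replicates, and the read depth is unknown. No spread between replicates and no test of a difference can therefore be given, and every value below is a description of these lists. The PolII and the Ets21c ratios of a cell type use the same Dam-alone samples. A low ratio in every cell and a high ratio in a few cells cannot be told apart.

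The endoplasmic reticulum (ER) folds secreted and membrane proteins, and misfolded protein there sets off the unfolded protein response. Its sensors are the kinase PEK (the fly PERK), the kinase and ribonuclease Ire1, which splices the mRNA of the transcription factor Xbp1, and the membrane-tethered transcription factor Atf6. PEK and the amino acid sensor Gcn2 both phosphorylate the translation factor eIF2alpha, which lowers translation in general while favoring that of crc, the fly ATF4. Hsc70-3 (BiP) and Gp93 (GRP94) are the chaperones of the ER lumen that the response raises, and in the fly midgut Xbp1 and PEK activity in stem cells are known to influence their proliferation.

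Upstream DNA is shown for PEK, the sensor with the highest Ets21c height in both cell types, and for the chaperones Hsc70-3 and Gp93, which were listed for Ets21c in different cell types. Each line is the 150 bases just before the first annotated start, 5′ to 3′ on the strand of the gene, read from the dm6 assembly of the reference. Capitals mark GGAA, the core that ETS factors such as Ets21c recognize, or its reverse complement TTCC, and in Hsc70-3 also CACGTCA, the reverse complement of TGACGTG, the core of the mammalian unfolded protein response element. The PEK stretch lies at chr3R:5464754-5464903 on the minus strand, that of Hsc70-3 at chrX:11807118-11807267 on the minus strand and that of Gp93 at chr3R:27948561-27948710 on the plus strand.
PEK: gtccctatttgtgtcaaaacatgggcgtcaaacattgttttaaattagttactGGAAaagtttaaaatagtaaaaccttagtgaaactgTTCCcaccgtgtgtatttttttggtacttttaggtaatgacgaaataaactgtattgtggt
Hsc70-3: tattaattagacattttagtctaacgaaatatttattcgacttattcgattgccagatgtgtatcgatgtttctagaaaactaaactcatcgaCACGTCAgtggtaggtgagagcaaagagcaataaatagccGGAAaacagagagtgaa
Gp93: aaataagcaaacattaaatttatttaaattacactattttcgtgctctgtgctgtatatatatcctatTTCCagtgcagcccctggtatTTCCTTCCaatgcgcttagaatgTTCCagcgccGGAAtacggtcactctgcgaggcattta
The GGAA core occurred 2 times in the PEK stretch, 1 time in that of Hsc70-3 and 5 times in that of Gp93. The 5 in Gp93 began 82, 61, 57, 38 and 28 bases before the start. PEK and Hsc70-3 were AT-rich there, with 32.7% and 35.3% GC, and Gp93 had 39.3%.

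Copies of the TGACGTG core were frequent around Hsc70-3. They are shown with 6 bases on either side, on the strand that reads TGACGTG, for the 3 copies upstream of Hsc70-3 (549, 346 and 57 bases before its first start, all between genes), the copies 673 and 1462 bases after it in an intron, and the copy of Gp93 that lies 88 bases after its start in an exon. The capitals mark the core.
Hsc70-3, 549 upstream: gagcacTGACGTGtacatt
Hsc70-3, 346 upstream: tagcacTGACGTGtcgcag
Hsc70-3, 57 upstream: taccacTGACGTGtcgatg
Hsc70-3, 673 downstream: taccacTGACGTGtctttt
Hsc70-3, 1462 downstream: ccacacTGACGTGtacttt
Gp93, 88 downstream: tattcgTGACGTGgccttt
The 5 Hsc70-3 copies shown were picked, after the sequences were seen, as those of its 9 with ac just before the core and t just after it, and the other 4 lack the ac.

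In ISCs/EBs, PolII was listed at 6 of the 8 genes, PEK, crc, Xbp1, Ire1, Hsc70-3 and Gp93, beside 12.1% of all annotated genes (2214 of 18277). In ECs it was listed at 1 of the 8, Hsc70-3, beside 5.18% (947 genes). Ets21c was listed at 4 of the 8 in ISCs/EBs, PEK, crc, Ire1 and Hsc70-3, beside 28.3% (5172 genes), and at 3 of the 8 in ECs, PEK, crc and Gp93, beside 26.5% (4843 genes). Over protein-coding genes alone, the shares listed were 15.8%, 6.78%, 31.9% and 30.4% in the same order. The members' shares were 75%, 12.5%, 50% and 37.5%, and 1 gene is worth 12.5 percentage points. The PolII share in ISCs/EBs lay furthest from its background, and the EC shares lay within 1 gene of theirs. At an FDR of at most 0.001 the PolII count in ISCs/EBs fell to 2, crc and Hsc70-3, beside 6.46% of all genes, and the Ets21c count in ECs to 1, PEK, beside 18.4%. At a height of at least 0.5 the Ets21c count in ECs was also 1, PEK, beside 14.1%, and the PolII count in ECs was 0, beside 2.1%.

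Gcn2 and Atf6 shared their absence from all 4 lists with 61% of annotated genes (11141). A gene not listed had no PolII height or Ets21c peak past the authors' thresholds; its value is not known and need not be 0.

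**Figure D1:**
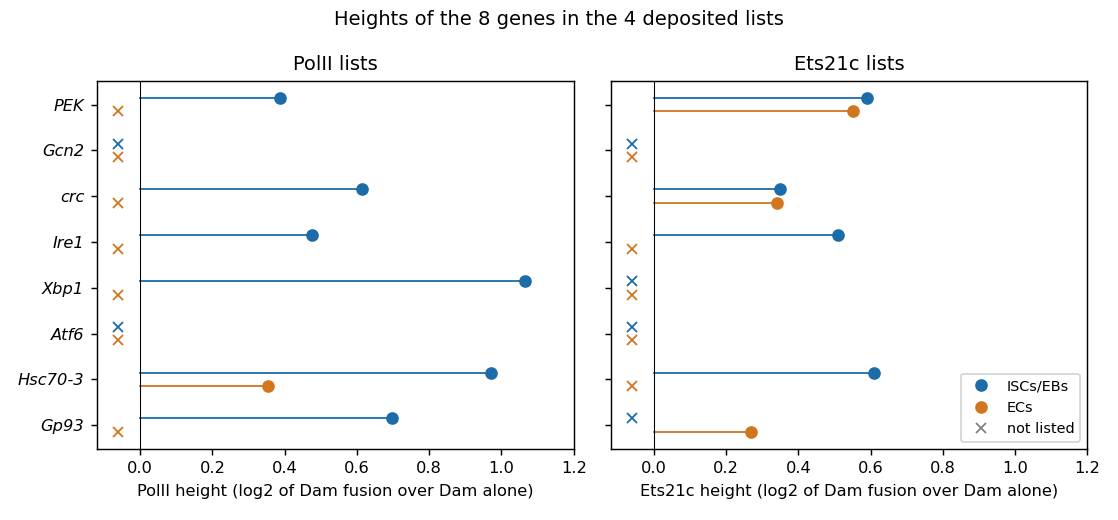
Height (log2 of the Dam fusion over Dam alone, the authors' values) of each of the 8 genes in the PolII lists (left) and the Ets21c lists (right), blue for ISCs/EBs and orange for ECs, with a cross left of 0 where the gene was not listed. PolII points of ISCs/EBs run from 0.386 at PEK to 1.065 at Xbp1, the only PolII point of ECs is Hsc70-3 at 0.355, and Gcn2 and Atf6 have crosses throughout.

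Among the 6 genes listed for PolII in ISCs/EBs, heights of transcription factors and chaperones interleaved. Xbp1, the transcription factor, had the highest PolII height of ISCs/EBs at 1.065 (FDR 0.00167), a 2.09-fold ratio over Dam alone, at rank 861 of 2216 with 61% of the list lower. Hsc70-3 followed at 0.97 (FDR 1.97e-05, rank 1054), and Gp93, the other chaperone, at 0.697 (FDR 0.00572, rank 1559). The transcription factor crc stood at 0.613 (FDR 0.000104, rank 1724).

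The listed sensors had the lowest of the 6 PolII heights, and no height is known for the unlisted Atf6 and Gcn2. Ire1 stood at 0.477 (FDR 0.00156, rank 1976) and PEK at 0.386 (FDR 0.00542, rank 2097), so that only 10.8% and 5.32% of listed genes lay below them. PEK was close to the bottom of the list, whose lowest height was 0.301. The 6 listed genes had a median height of 0.655 beside 0.934 over the whole list. Xbp1 and Hsc70-3 thus lay above the median of the list and the other 4 below it. Hsc70-3 and Xbp1 lay close to each other, as did crc and Gp93, and Ire1 and PEK. Without replicates no order among the 6 heights can be called.

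In ECs only Hsc70-3 was listed for PolII, with a height of 0.355 (FDR 0.000285) at rank 776 of 948, where 18% of the list lay lower and the median was 0.459. Its height in ISCs/EBs was higher by 0.615. That gap was not out of the ordinary: of the 708 genes listed for PolII in both cell types, 705 were higher in ISCs/EBs, with a median gap of 0.77, and 31.1% had a smaller gap than Hsc70-3. PolII heights thus ran lower in the EC list in general.

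**Figure D2:**
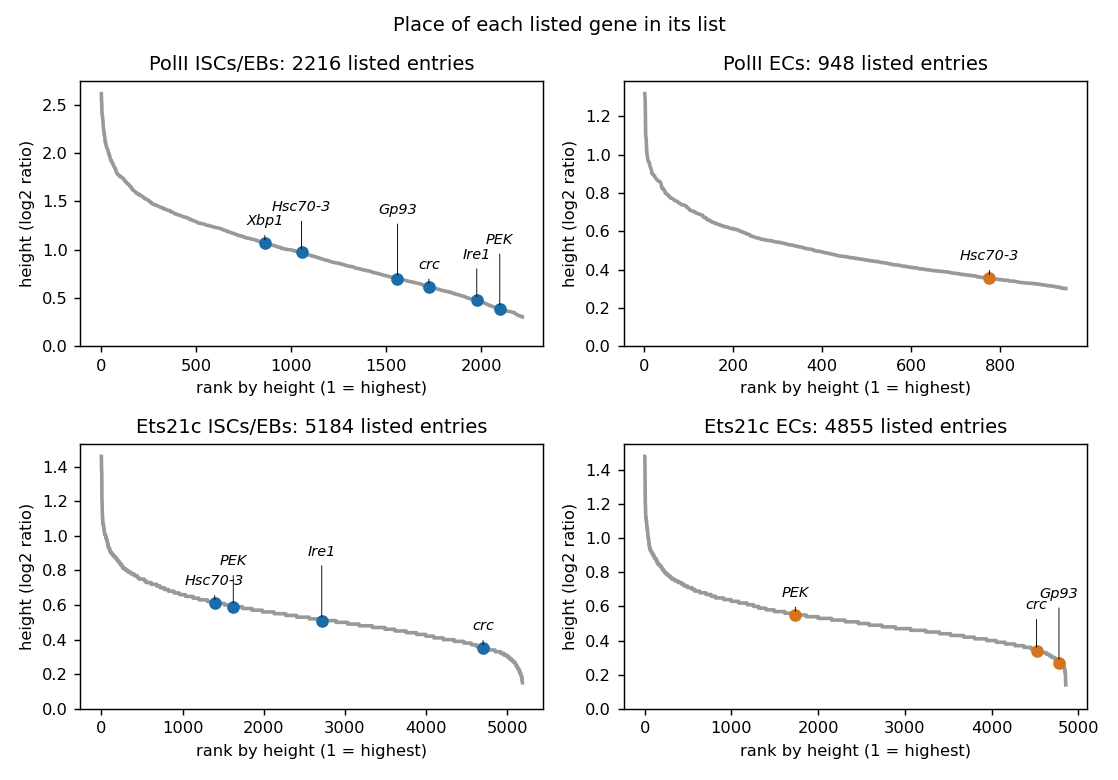
Height (log2 ratio) against rank for all entries of the 4 deposited lists (grey line, 1 is the highest), with the listed members as points. In the PolII list of ISCs/EBs, Xbp1 and Hsc70-3 sit in the middle of the curve and Ire1 and PEK near its end, whereas in the Ets21c lists PEK sits in the upper part and crc near the end in both cell types.

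The Ets21c heights ran in another order, which without replicates cannot be called either. In ISCs/EBs its highest member was Hsc70-3 at 0.61 (FDR 0.00845, rank 1397 of 5184), followed by PEK at 0.59 (FDR 9e-05, rank 1625), Ire1 at 0.51 (FDR 0.0001, rank 2714) and crc at 0.35 (FDR 0.0001, rank 4700). Hsc70-3 and PEK lay above the list's median of 0.52, with 70.8% and 66.5% of entries lower, Ire1 lay next to it and crc far below, with 7.97% lower. The FDR of Hsc70-3 was the highest value in the list, which 147 entries share.

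In ECs, Ets21c was listed at PEK with 0.55 (FDR 6e-05, rank 1737 of 4855), at crc with 0.34 (FDR 0.00829, rank 4518) and at Gp93 with 0.27 (FDR 0.00714, rank 4776). PEK lay above the EC median of 0.51 and had 61.7% of entries below it. The crc FDR was the highest in the EC list, shared by 154 entries. Gp93 was near the end, with 1.3% of entries lower, and its height is below the minimum of 0.3 that the study's methods state, as are the heights of 125 entries of the EC list and 161 of the ISC/EB list. The heading of the deposited list gives 0.1 instead.

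The eIF2alpha kinase PEK and its downstream factor crc were the only members listed for Ets21c in both cell types, and their heights there were close: 0.59 and 0.55 for PEK, 0.35 and 0.34 for crc. The differences of 0.04 and 0.01 are small beside the spread over the 3422 genes listed in both cell types, in which the difference of ISCs/EBs minus ECs had a median of 0.03, a 5th percentile of -0.28 and a 95th of 0.32. Of those genes, 1606 (46.9%) differed by no more than 0.1, so close heights are common and the heights of PEK and crc are not particular in this. The ER nuclease Ire1 and the chaperone Hsc70-3 were listed for Ets21c in ISCs/EBs and not in ECs, and Gp93 in ECs and not in ISCs/EBs. Whether the unlisted side was absent or under a threshold is not known. Over all annotated genes, Ets21c was listed at 5172 in ISCs/EBs and 4843 in ECs, beside the 3422 genes in both lists. A listing that differs between the cell types is thus common and not particular to Ire1, Hsc70-3 and Gp93.

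The members with 3 listed heights were set beside the genes found in the same lists with the nearest heights, by Euclidean distance on the log2 scale. For PEK, among 795 such genes, these were the Hedgehog receptor gene ptc (distance 0.0335, with 0.401 for PolII in ISCs/EBs and 0.59 and 0.58 for Ets21c), the MAP kinase kinase kinase gene Raf (0.0446) and the esterase gene alpha-Est10 (0.0496). For crc, also among 795, they were Pal1 (0.0825), the autophagy kinase gene Atg1 (0.0828, with 0.547, 0.4 and 0.34 in the same order) and loco (0.0865), a regulator of G protein signaling. For Hsc70-3, among 85, they were PIG-Wb (0.0612), the kinase gene Pdk1 (0.0753) and the esterase gene alpha-Est4 (0.0824), all with an Ets21c height of 0.56 in ISCs/EBs.

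A peak was given by the authors to every gene up to 5 kb away unless another gene lay in between, so neighbors can hold the same peak. This was read from the lists by looking for neighbors with the same Ets21c height and FDR, which is common: 66.2% of the annotated genes in the ISC/EB list and 66.8% in the EC list share both values with a gene within 5 kb. PEK (chr3R:5458563-5464753, minus strand, 6191 bp) shared both values with CG14669 in both cell types, 0.59 and 9e-05 in ISCs/EBs and 0.55 and 6e-05 in ECs. CG14669 lies 168 bp beyond the 3′ end of PEK on the opposite strand and ends toward it. The gene on the other side, RpL35A, a ribosomal protein gene 876 bp upstream, had PolII heights of 1.317 and 0.692 and was not listed for Ets21c. The lists do not hold the position of the peak, so it cannot be assigned to PEK or to CG14669 alone.

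For crc (chr2L:21310866-21319527, plus strand, 8662 bp), the neighbor with shared values was Mondo, which encodes a sugar-responsive transcription factor, 815 bp upstream in divergent orientation, with 0.35 and an FDR of 0.0001 in ISCs/EBs. In ECs the values of crc and Mondo came apart, at 0.34 and 0.48. The FDR of 0.0001 alone is carried by 1729 entries of the ISC/EB list and the heights have steps of 0.01, so equal values alone do not show that a peak is shared. On the 3′ side, lncRNA:CR44785, 72 bp away, had its own heights of 0.68 and 0.71. CG46314 overlaps crc on the same strand and was not listed, and whether the authors' annotation held it is not known. The PolII height of 0.613 for crc is thus a mean over DNA that CG46314 shares.

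Ire1 (chr3R:19853908-19861291, minus strand, 7384 bp) overlaps MICU3 on the opposite strand at their 3′ ends, and the pair shared 0.51 and 0.0001 in ISCs/EBs. In ECs MICU3 kept a height of 0.64 where Ire1 was not listed. All 5 genes within 5 kb of Ire1 were listed for Ets21c in ISCs/EBs, each with an FDR of 0.0001. Mrm2, 318 bp upstream, and CG4572 both had 0.36, and CG4686 and Mrp5 both had 0.61. The 5 genes may therefore hold fewer than 5 peaks. Hsc70-3 (chrX:11801696-11807117, minus strand, 5422 bp) had 2 neighbors, and both were listed in both cell types with heights of their own. They were CkIIbeta, a subunit of casein kinase 108 bp beyond its 3′ end, with 0.5 and 0.47, and CG1578, 1388 bp upstream, with 0.44 and 0.36. In ISCs/EBs CkIIbeta had the same FDR as Hsc70-3, 0.00845, a value that 147 entries share. In ECs, Ets21c was thus listed on both sides of Hsc70-3 and not at it.

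Gp93 (chr3R:27948711-27952151, plus strand, 3441 bp) is divergent to mfrn, a mitochondrial iron carrier gene 689 bp upstream. The mfrn gene had an Ets21c height of 0.56 in ECs with the same FDR of 0.00714 as Gp93 but a different height. Neither gene was listed for Ets21c in ISCs/EBs, and both were listed for PolII there, at 0.914 for mfrn and 0.697 for Gp93. Gcn2 (chr3R:31395660-31402013, plus strand, 6354 bp) had 5 genes within 5 kb, PNPase overlapping it, and none of the 5 was in any of the 4 lists.

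**Figure D3:**
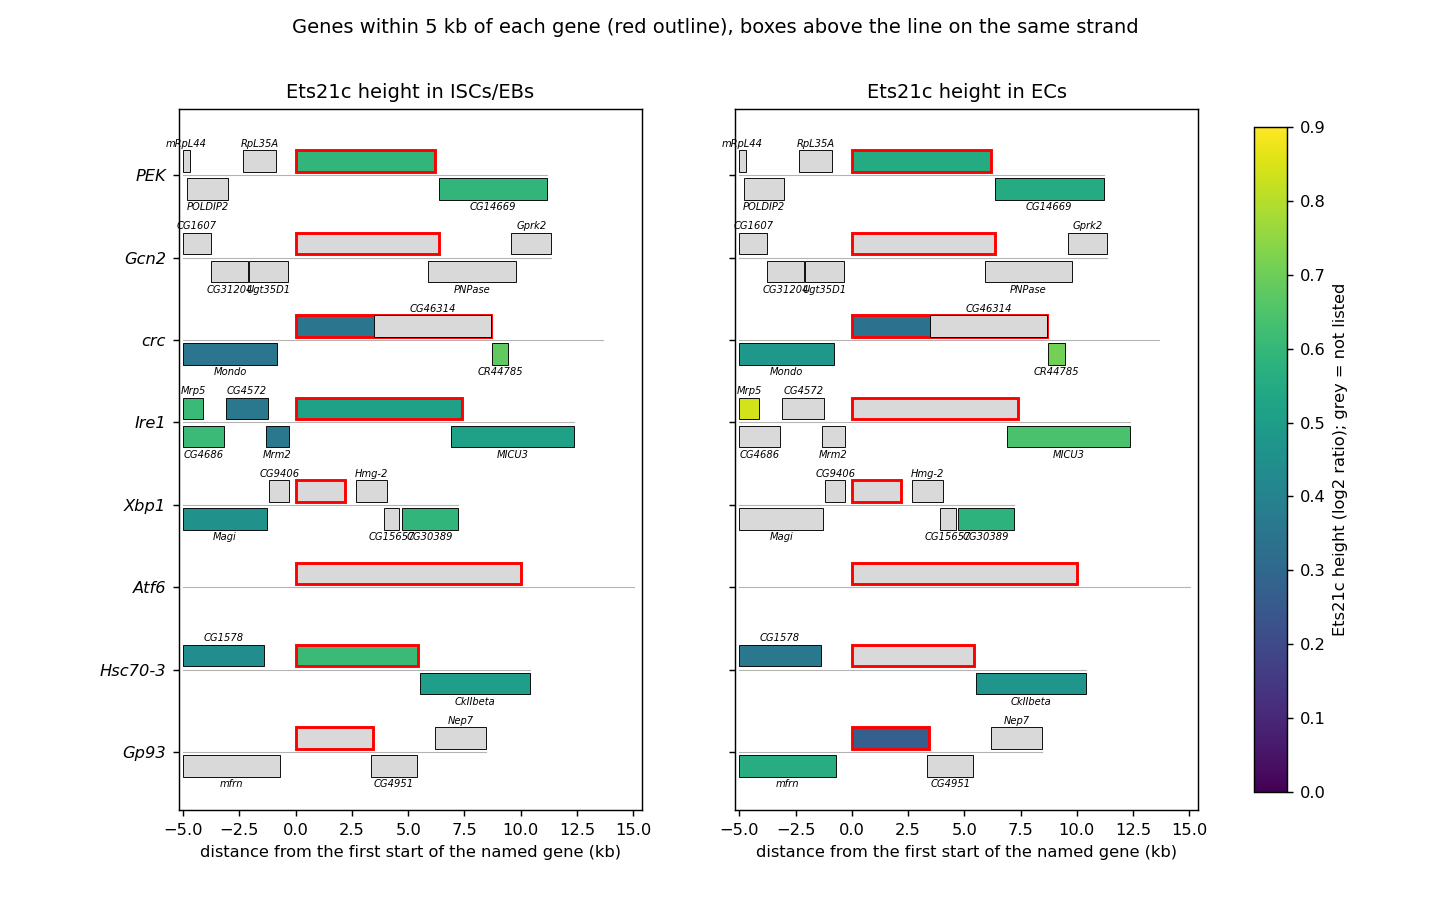
Annotated genes within 5 kb of each member (red outline), drawn to scale along the distance in kb from the member's first start in its own direction and cut at 5 kb on either side, with boxes above the line on the member's strand. Color gives the Ets21c height (log2 ratio) in ISCs/EBs (left) and ECs (right), grey is not listed: CG14669 has the color of PEK in both cell types, every gene around Ire1 is colored in ISCs/EBs, and every gene around Gcn2 is grey.

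Xbp1 (chr2R:21143545-21145750, plus strand, 2206 bp) was the shortest member and the one with the highest PolII height, and it was not listed for Ets21c in either cell type. Its nearest neighbors, CG9406 at 283 bp and Hmg-2 at 452 bp, were in no list. Behind them, Magi at 1283 bp upstream was listed at 0.45 in ISCs/EBs and CG30389 at 2514 bp downstream at 0.59 and 0.58. Atf6 (chr2R:5144733-5154756, plus strand, 10024 bp) was the longest member and had no annotated gene within 5 kb but 17 annotated transposable elements, where the median gene had 0 and the 95th percentile was 2. Of the other members only crc had any, with 4. Reads in such repeats align to many places, and their part in the absence of Atf6 from the lists was not tested.

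TaDa can only see DNA through its GATC sites. Over the gene and 5 kb on each side, the members had between 2.14 GATC sites per kb at crc and 5.13 at Gp93, beside a median of 3.34 over all genes and a range of 1.46 to 5.16 between the 5th and 95th percentiles. The unlisted Gcn2, with 3.79, and Atf6, with 3.2, were near the median, as were the listed Xbp1, with 3.36, and Hsc70-3, with 3.76. PEK had 2.78 and Ire1 4.31. All 8 were longer than the median gene of 1650 bp, with 60.6% of genes shorter than Xbp1 and 88.8% shorter than Atf6. The part of GATC density in the listing and that of gene length in the counts were not tested.

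The DNA from 250 bases before to 50 after the first start of each member was searched on both strands, and the share of all 18277 genes with a match in the same 300 bases is given. The ETS core GGAA was in all 8 windows and in 87.8% of all windows, between 1 match at Xbp1 and 6 at Gp93. The longer ETS site CCGGAAG, which contains GGAA, was in none of the 8 and in 1.35% of all. Over the gene and 5 kb on each side CCGGAAG occurred 2 times at PEK, Gcn2 and Atf6, 1 time at Ire1 and not at crc, Xbp1, Hsc70-3 or Gp93. The median over all genes was 0.075 per kb, so most genes held a match there. It was present at both members in no list and absent at 3 of the 5 listed for Ets21c. Its part in the listing was not tested. The AP-1 site TGANTCA was in none of the 8 windows and 6.28% of all, and TGATGCA, a form of the element that ATF4 binds in mammals, in none and 2.5%. CCACG, part of the mammalian ER stress element, was in 1 of the 8, Ire1, and 24.1% of all.

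TGACGTG was in 2 of the 8 windows, Xbp1 and Hsc70-3, and in 1.36% of all. These motif counts used first starts only, and some members have further annotated starts. At the other start of Atf6, 2433 bp away, the window held 1 TGACGTG and 1 CCACG. At Hsc70-3, the windows 764 and 1996 bp from the first start held 1 TGACGTG each and the window at 1753 bp none. The Hsc70-3 window at 1996 bp held no GGAA. Over the gene and 5 kb on each side, Hsc70-3 held 9 matches, or 0.584 per kb, and only 3 of the 18277 genes had more per kb (Amacr, CR1075 and CtsL3, with 7 matches each). Gp93 held 5 matches, or 0.372 per kb, with 35 genes above it. The median gene held 0 and the 95th percentile was 0.182 per kb, and 47.7% of genes held at least 1. Gcn2 and Atf6 held 3 each, PEK, crc and Xbp1 2 each and Ire1 none. Of the 9 at Hsc70-3, 3 lay upstream, 4 in introns, 1 in an exon outside the coding sequence and 1 in coding sequence, and in 8 the base after the core was T. At Gp93 all 5 lay within the gene. The members with most of these cores were thus the chaperones, which stood in different Ets21c lists. Gcn2 and Atf6, with 3 each, were not listed for Ets21c, and PEK, with 2, was listed in both cell types. The part of TGACGTG in the listing was not tested.

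**Figure D4:**
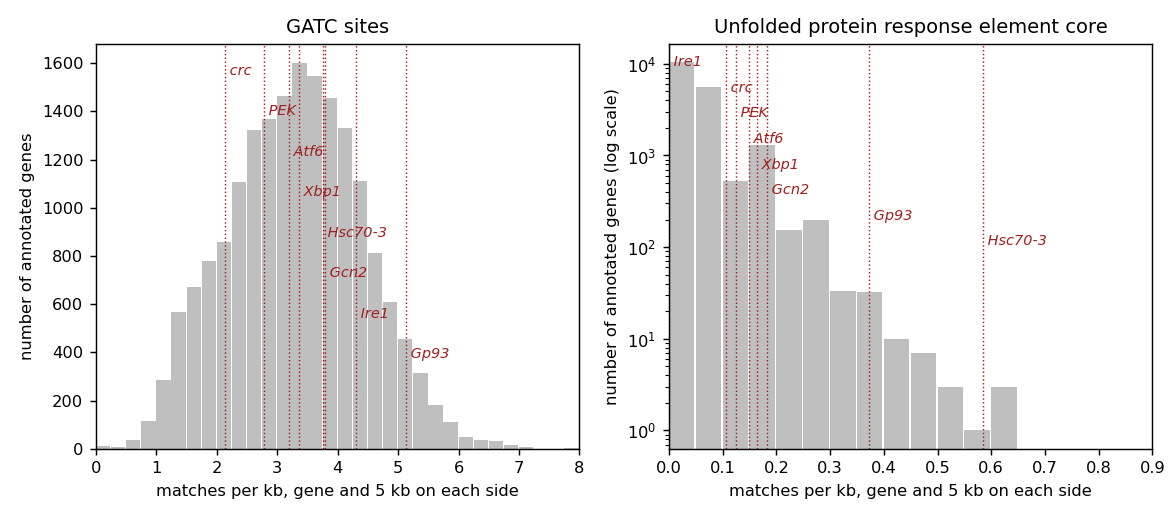
Number of annotated genes by matches per kb of the gene and 5 kb on each side, for GATC sites (left) and for the core TGACGTG of the unfolded protein response element (right, log scale on the vertical axis), with the 8 members as dotted lines. GATC densities of the members spread from 2.14 to 5.13 per kb across the distribution, whereas Hsc70-3 at 0.584 and Gp93 at 0.372 TGACGTG per kb stand at its right end.

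Other genes of the same pathways were listed as well. Of 48 named for 5 groups, 47 were found in the annotation, and 13 (27.7%) were listed for PolII in ISCs/EBs, 8 (17%) for PolII in ECs, 23 (48.9%) for Ets21c in ISCs/EBs and 18 (38.3%) for Ets21c in ECs. All 4 shares were above those of all annotated genes given before, and they were chosen by name with earlier results known, so the gap is a description. The 13 PolII heights in ISCs/EBs had a median of 0.983 beside 0.655 for the 6 listed members, and no gene of the 13 was under 0.667, a height that crc, Ire1 and PEK did not reach. The Ets21c medians of these genes were 0.52 among ISC/EB entries and 0.43 among EC entries.

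In the eIF2alpha branch, 2 of 11 genes were listed for PolII in each cell type and 6 and 4 for Ets21c in ISCs/EBs and ECs. PPP1R15, which directs the removal of the phosphate from eIF2alpha, was in all 4 lists, with PolII at 1.196 and 0.46 and Ets21c at 0.37 and 0.45. Thor, the 4E-BP translation repressor that crc is known to induce, had PolII at 1.624 and 0.646 and Ets21c at 0.55 in ISCs/EBs only. Of the subunits of eIF2B, the exchange factor that phosphorylated eIF2alpha blocks, eIF2Balpha (0.7 and 0.55), eIF2Bbeta (0.47 and 0.45), eIF2Bgamma (0.59, ISCs/EBs only) and eIF2Bdelta (0.57 and 0.32) were listed for Ets21c and none of them for PolII. The substrate eIF2alpha itself, eIF2Bepsilon and the reinitiation factors DENR, MCTS1 and eIF2D were in no list. These counts of the branch stand beside 12.1%, 5.18%, 28.3% and 26.5% of all genes in the PolII lists and then the Ets21c lists, ISCs/EBs first.

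The processing enzymes of the other branches, the ligase RtcB, which in the mouse and in worms rejoins spliced Xbp1 mRNA, and the proteases S1P and S2P, which cut Atf6 in mammals, were in no list. Of the 3 sensors, only Ire1 and PEK were listed, and 3 of 3 processing genes in no list is a count to be read beside the 61% of all genes in no list.

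Among 16 ER chaperones and folding proteins, 5 were listed for PolII in ISCs/EBs, 3 in ECs, 8 for Ets21c in ISCs/EBs and 6 in ECs, beside 12.1%, 5.18%, 28.3% and 26.5% of all genes. Manf, a secreted ER stress protein, had an Ets21c height of 0.75 in ISCs/EBs beside PolII at 1.024. Grp170, a nucleotide exchange factor for BiP in mammals, had Ets21c at 0.39 in ISCs/EBs and 0.74 in ECs and was not listed for PolII. Pdi, a disulfide isomerase, was in all 4 lists, with PolII at 0.667 and 0.335 and Ets21c at 0.62 and 0.41, and shv, a DnaJ protein, was listed for Ets21c at 0.62 and 0.61. P58IPK, CaBP1, BI-1 and wbl were in no list. The PolII heights of Hsc70-3 and Gp93 in ISCs/EBs lay within the range of this group, from Pdi at 0.667 to prtp at 1.29.

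ER-associated degradation, which takes misfolded proteins out to the proteasome, had 4 of 12 genes listed for PolII in ISCs/EBs, 2 in ECs and 6 for Ets21c in each cell type, to be read beside the same shares of all genes. Npl4 had the highest Ets21c height of the 47 genes in ISCs/EBs, 0.86, and was not listed for PolII. Herp was in all 4 lists (PolII 0.756 and 0.536, Ets21c 0.69 and 0.38), Edem2, a lectin, had Ets21c at 0.36 and 0.57, and the ubiquitin-conjugating enzyme Ubc7 was in all 4 lists, with PolII at 0.983 and 0.365 and Ets21c at 0.4 and 0.56. Hrd3, Der-1, TER94 and Ufd1-like were in no list. Of the 5 translocon genes, Sec63 had PolII at 0.8 in ISCs/EBs and Ets21c at 0.79 and 0.55, Sec61beta had PolII at 1.579 and 0.466 and Ets21c at 0.48 in ISCs/EBs, and Trp1 had Ets21c at 0.42 and 0.39. Sec61alpha and Sec61gamma were in no list.

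**Figure D5:**
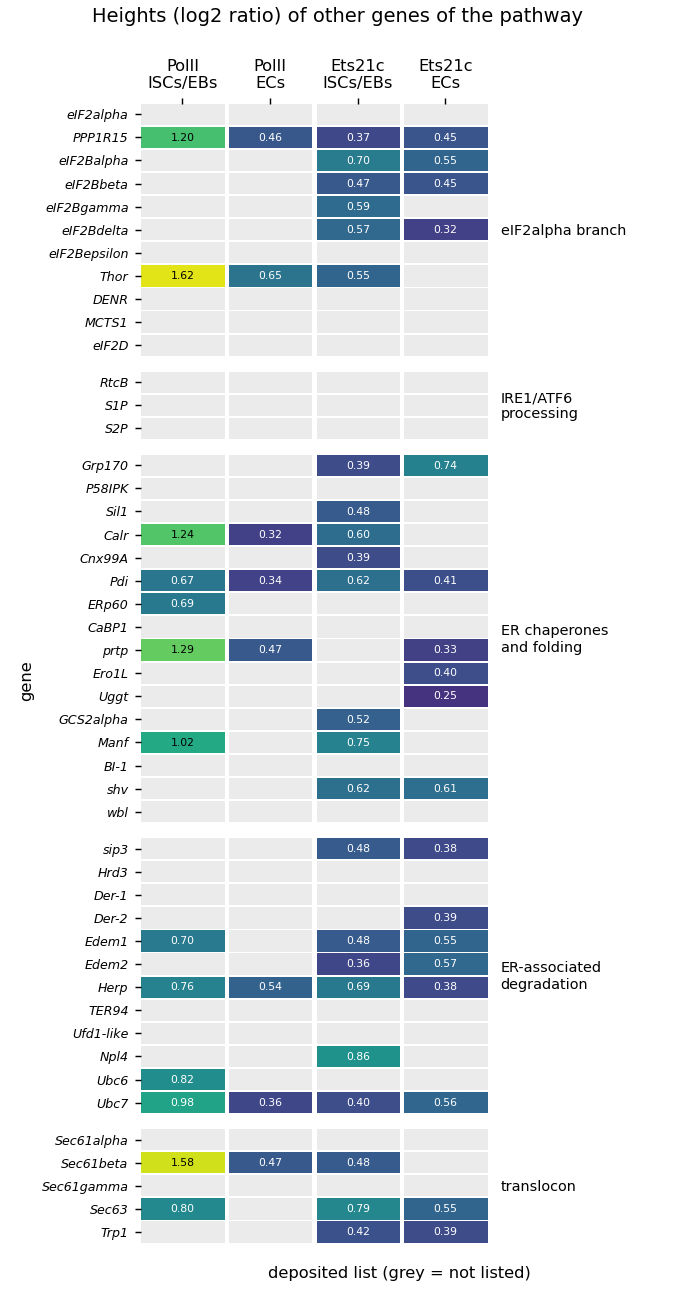
Heights (log2 ratio, the authors' values) of the 47 other pathway genes in the 4 lists, by group, with grey for genes not listed. Most filled cells are in the Ets21c columns (23 and 18 genes), whose lists are also the longer ones over all genes (5172 and 4843, beside 2214 and 947 for PolII). All 3 genes of IRE1 and ATF6 processing are grey, as are 61% of all genes. The highest PolII values are Thor at 1.62 and Sec61beta at 1.58 in ISCs/EBs.

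The labelled cell types were checked against their markers in the same lists. Of 6 progenitor markers (esg, Dl, zfh2, klu, hdc and Sox21a), 6 were listed for PolII in ISCs/EBs and 0 in ECs. Of 6 enterocyte markers (Myo31DF, nub, mex1, betaTry, Jon99Ci and GATAe), 3 were listed for PolII in each cell type, so enterocyte genes did not set the lists apart. Myo31DF, the gene whose Myo1A driver marks ECs, was listed for PolII at 0.472 in ISCs/EBs and not listed in ECs, against its label. The markers mex1 and GATAe were listed in both cell types, Jon99Ci in ECs only, and betaTry in no list. Of the 4 enteroendocrine markers (pros, Tk, NPF and AstA), 0 were listed for PolII in either. In ISCs/EBs, 2 of 3 visceral muscle markers (Mhc, Mef2 and how) and 1 of 3 hemocyte markers (Hml, srp and NimC1) were listed for PolII, and 0 of either in ECs. These were Mef2 at 0.349, how at 0.372 and srp at 0.861, and the other markers of these cells, Mhc, Hml and NimC1, were in no list. The part of such cells in the PolII heights of the 8 genes was not tested.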

How the data were processed

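The 18 samples were grouped by the driver and the Dam transgene in their labels. With damidseq_pipeline the authors computed log2 ratios, Dam fusion over Dam alone, per GATC fragment, and deposited the genes listed for PolII and for Ets21c in each cell type. The submitters' processing notes name build dm3, the study's methods dm6 with annotation release 6.03, and the deposited lists hold no coordinates. Ets21c replicate 2 of each cell type was left out by the authors as noisy. Ets21c peaks needed 2 or more consecutive GATC fragments and an FDR below 1% in the replicates used. The deposited FDR (q-value) of a PolII gene is the highest of its replicates. A gene under a threshold has no value.

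The height, FDR and rank of each member were read by symbol, and shares were taken over 18277 genes of Ensembl release 115 (FlyBase 6.54, BDGP6, the dm6 assembly), transposable elements left out. Genes annotated only after the authors' release 6.03 could not be listed but count in these shares, and their number was not determined. Loci, GATC sites, motifs and all printed DNA and coordinates come from that reference, and the search was tested on simulated sequence. The members and gene lists were chosen with earlier results of these data known. All 8 members are named, with up to 4 listed genes per pathway group in order of their highest Ets21c height in either cell type, those in no list where a group is discussed, neighbors with the same Ets21c height and FDR, and the 3 nearest genes of members in 3 lists. Other named neighbors and pathway genes, single markers and the genes with more TGACGTG cores per kb than Hsc70-3 were chosen after values were seen. Of the 48 other pathway genes, Gcn1 was not matched. Alternatives were a height of at least 0.5, an FDR of at most 0.001, protein-coding genes, matching by FlyBase ID, neighbors sharing values in at least 1 cell type and 1000 bases before the start. Reads, peak positions and single replicates were not analysed here. Scripts used python 3.11.15, numpy 2.4.6 and matplotlib 3.10.9.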

Additional observations from a re-analysis of the deposited data

How the results depend on the processing

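No paired analysis was possible because the deposited lists hold 1 pooled value per gene and cell type, although the labels share replicate numbers. For the same reason no replicate could be left out. Of the alternatives, 16 kept their count within 1.5 times and 7 did not. The 16 include settings that could hardly change a count, so they are no measure of robustness. Taking protein-coding genes changes only the background, and matching by FlyBase ID looks up the same genes. The GGAA core was in 99.9% of all longer windows. At an FDR of at most 0.001, the PolII count in ISCs/EBs fell from 6 members to 2, crc and Hsc70-3 (6.46% of all genes), and the Ets21c count in ECs from 3 to 1, PEK (18.4%). At a height of at least 0.5, the PolII count in ECs went from 1 to 0 (2.1%) and the Ets21c count in ECs from 3 to 1, PEK (14.1%), whereas the PolII count in ISCs/EBs was 4 (10.5%) and the Ets21c count in ISCs/EBs 3 (16.6%). With 1000 bases before the start in place of 250, CCACG was present at 4 members instead of 1 (67.4% of all genes) and TGATGCA at 1 instead of 0 (10.9%). Neighbors that share values in at least 1 cell type were found at 3 members, PEK, crc and Ire1, instead of 1. These settings leave fewer entries, search longer windows or use a looser rule, and their part in the changes was not tested. Depth and replicate spread are unknown, so no height difference here has an error.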
